A study of Homo sapiens with 4 samples.

Results

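The cytosolic ribosome, the particle that translates messenger RNA in the cytoplasm, is built from ribosomal RNA and about as many proteins as there are genes described here. The genes were chosen by their symbols: every row of the matrices named RPL or RPS with a number, with RPLP0, RPLP1, RPLP2 and RPSA, while RPS6K kinases and pseudogene-like names were left out. This gave 87 genes of the 33538 listed, of which 50 are of the large subunit (RPL), 34 of the small subunit (RPS, with RPSA) and 3 of the stalk (RPLP). Of the 87, 10 are paralogues, second genes for a protein that another member also encodes or resembles (RPL22L1, RPL26L1, RPL36AL, RPL39L, RPS27L, RPL7L1, RPL3L, RPL10L, RPS4Y1 and RPS4Y2).

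Single-cell RNA sequencing was carried out on 4 libraries of LNCaP, an androgen-sensitive line from a human prostate cancer metastasis, to compare short-term treatment with acquired resistance to enzalutamide (ENZ), a blocker of the androgen receptor. LNCaP was the parental line in 0.1% DMSO, the solvent, for 48 h, and LNCaP-ENZ48 was the same line in 10 µM ENZ for 48 h. RES-A and RES-B are LNCaP-derived lines that were given 10 µM ENZ at each feeding, RES-A having been selected by passage in rising ENZ and RES-B by continuous exposure to the related drug RD-162. With 1 library per group, differences have no replicate check and none was tested. Intervals below are 95% intervals of counting error alone, and the clone or culture a library came from cannot be told apart from the group.

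After filtering, 14727 cells remained, with 50208831 to 60838227 UMIs per library (unique molecular identifiers, the tags by which RNA molecules were counted). The study's limits kept larger cells in LNCaP (16000 to 50000 UMIs) than in the other libraries (5000 to 25000 UMIs), and the median cell held 27079.5 UMIs in LNCaP and 12138 to 13676 in the others. Pairs of libraries shared 2 to 9 cell barcodes. All 7 luminal prostate markers were detected in every library (summed level 1587 to 2314 CPM, the UMIs of a gene scaled to an equal total in every library), with KLK3 at 2 UMIs in RES-A. The 5 markers of immune, fibroblast, endothelial and basal cells summed to 1.5 to 3.51 CPM, and 2 to 4 of them were at 0 in each library.

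Ribosomal protein genes are transcribed in large and roughly matched amounts, since each protein is needed in a single copy per ribosome, apart from the acidic stalk proteins. Their messages carry a 5′ terminal oligopyrimidine (TOP) tract, an unbroken run of C and T that begins at the start site and through which the growth-regulating kinase mTORC1 controls their translation. Some members have duties outside the ribosome: RPL5 and RPL11 hold the p53 regulator MDM2, and RPS27L is a p53 target.

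The start-site windows of the members that the results turn on are shown first. They give the runs of C and T around the listed starts of departing genes and paralogues. Each window holds 10 bases before and 20 bases from the start site of the RefSeq promoter table (GRCh38.p14), read on the transcribed strand only, so that the 11th base is the start, and capitals mark the longest run of C or T.
RPLP1 (chr15:69452808-69452837, plus strand): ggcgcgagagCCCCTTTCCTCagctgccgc
RPLP2 (chr11:809957-809986, plus strand): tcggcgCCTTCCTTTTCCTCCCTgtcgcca
RPS25 (chr11:119018324-119018353, minus strand): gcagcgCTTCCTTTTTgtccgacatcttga
RPL28 (chr19:55385922-55385951, plus strand): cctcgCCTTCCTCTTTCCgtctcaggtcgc
RPL13 (chr16:89560647-89560676, plus strand): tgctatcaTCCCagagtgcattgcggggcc
RPL22 (chr1:6199576-6199605, minus strand): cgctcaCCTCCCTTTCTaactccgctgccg
RPL22L1 (chr3:170870176-170870205, minus strand): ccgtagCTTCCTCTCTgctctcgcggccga
RPL36AL (chr14:49620607-49620636, minus strand): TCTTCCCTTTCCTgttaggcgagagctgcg
RPL7L1 (chr6:42879606-42879635, plus strand): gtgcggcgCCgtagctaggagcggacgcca
RPS27L (chr15:63157458-63157487, minus strand): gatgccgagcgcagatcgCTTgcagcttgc
RPL26L1 (chr5:172958719-172958748, plus strand): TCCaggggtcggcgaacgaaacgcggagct
RPL10L (chr14:46651762-46651791, minus strand): gtagttaagagagcgcaTTTTgacttcgag

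The table held 70 of the 87 members. A run of at least 7 C or T bases was present in 54 of these 70 windows (77.1%), against 19.1% of the windows of all 27305 genes in the table. Among members that are not paralogues it was present in 51 of 62 (82.3%), and among paralogues in 3 of 8 (37.5%). The start base itself was C or T in 74.3% of the members and in 22.6% of all genes. RPL7L1, RPS27L, RPL26L1 and RPL10L had no such run, whereas RPL22L1 and RPL36AL did. A run counted wherever it lay in the window, so it need not be a TOP tract. That of RPL36AL begins 10 bases before the start, that of RPL19 ends before it and that of RPL27 lies after it. The table places 1 start per gene. Among other members without such a run, RPL13 and RPL15 had runs of 4 bases there, and RPL11, RPL3 and RPL10 runs of 5. Whether these are the starts used in LNCaP cells was not tested.

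The family took up 32.8% of all UMIs in LNCaP (interval 32.81 to 32.84%) and 32.5% in LNCaP-ENZ48. The share was lower in both resistant lines, at 30.1% in RES-A and 26.8% in RES-B. Single cells gave the same order, as the median share was 33.0% in LNCaP (quartiles 30.5 to 35.5%), 32.6% after 48 h of ENZ (29.8 to 35.3%), 30.2% in RES-A (28.3 to 32.1%) and 26.9% in RES-B (24.97 to 28.8%). RES-B thus had an upper quartile below the lower quartile of both LNCaP libraries.

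**Figure D1:**
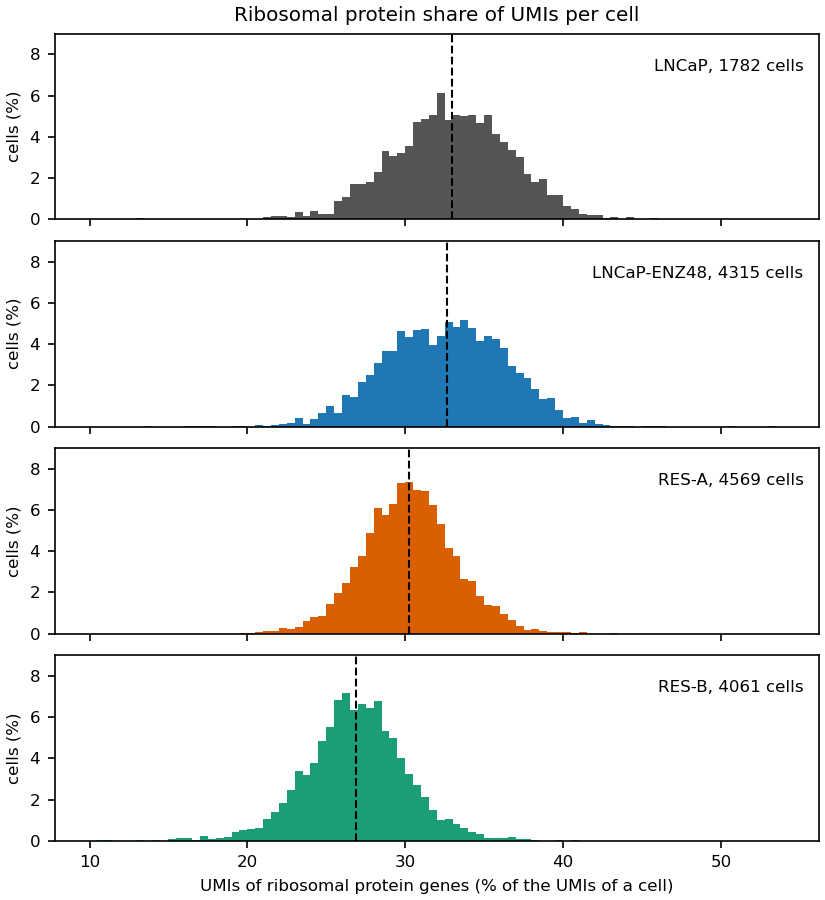
Share of each cell's UMIs that came from the 87 ribosomal protein genes (x axis, %) in the kept cells of each library (y axis, % of cells per bin), with a dashed line at the median. The medians run from 33.0% in LNCaP to 26.9% in RES-B, and the distributions overlap.

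Mitochondrial transcripts took 9.60% of UMIs in LNCaP, 9.34% after 48 h of ENZ, 10.5% in RES-A and 12.1% in RES-B. With the mitochondrial genes left out of the totals, the family's shares were 36.3, 35.9, 33.6 and 30.4%. Among cells with 5 to 10% mitochondrial UMIs the median shares were 32.8, 32.9, 30.5 and 27.3%, and among cells with 20000 to 25000 UMIs they were 33.5, 32, 29.4 and 26.5%. RES-A and RES-B therefore stayed below both LNCaP libraries at matched mitochondrial share and at matched cell depth.

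The share also moved with the cell cycle inside each library. Cells called G2/M had median shares of 29.9% in LNCaP, 30.0% after 48 h of ENZ, 28.2% in RES-A and 24.7% in RES-B, against 33.7, 33.0, 30.8 and 27.4% in G1 cells. G2/M cells made up 18.7, 12.1, 18.8 and 16.7% of the libraries, and the order of the libraries in G1 cells was that of all cells. Across cells within a library, the share followed UMIs per cell only weakly (Spearman's rho −0.05 to −0.19 over 1782 to 4569 cells), and the mitochondrial share likewise (−0.03 to −0.13); these measures share each cell's total.

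Gene by gene, 84 of the 87 members had a mean of at least 10 CPM, as did 7460 of all genes, and ratios were read for these. RPL39L, RPL3L and RPS4Y2 did not pass. Against LNCaP, the median log2 ratio of the 84 members was −0.01 after 48 h of ENZ, −0.13 in RES-A and −0.32 in RES-B, where the medians over all 7460 genes were −0.07, 0.02 and 0.11. RES-B against RES-A gave −0.18 for the members and 0.09 for all genes. The 3 comparisons against LNCaP share that library. Since the family is a large part of every library, the ratio of each gene depends on what it is scaled to. With size factors from TMM, the all-gene median of RES-B against LNCaP moved from 0.11 to 0.01 and that of LNCaP-ENZ48 from −0.07 to 0.02, and the members' medians moved with them, to 0.08, −0.18 and −0.43. In the same order, the members' median minus the all-gene median, which no scaling changes, was 0.06, −0.15, −0.44 and, for RES-B against RES-A, −0.27. The direction for LNCaP-ENZ48 therefore depended on the scaling, and that for the resistant lines did not.

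The 493 other genes over 200 CPM had medians of 0.03, 0.14 and 0.18 against LNCaP, above those of all genes. In RES-B against RES-A their median was −0.014, below that of all genes, with 23.1% at least 1.2-fold lower where 17.6% of all genes were. Large and small subunit genes without paralogues had similar medians in RES-A (−0.13 over 43 large subunit genes, −0.14 over 31 small subunit genes). In RES-B the medians were −0.31 and −0.39. At least 1.2-fold lower in RES-A were 30.2% of the large and 45.2% of the small subunit genes (27.1% of all genes). At least 1.2-fold higher there were 9.30% and 3.23% (29.0% of all genes).

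Levels spanned a wide range within the family. RPS2, a small subunit gene and the most abundant member in LNCaP, was at 12466 CPM there, 12013 after 48 h of ENZ, 13112 in RES-A and 8957 in RES-B. RPL41, which encodes the smallest ribosomal protein, was at 10355, 10680.1, 10229 and 8759.6 CPM, and in RES-B it was passed by RPS18 and RPLP1. Among members that are not paralogues, RPL17 was the least counted in LNCaP, at 83.8 CPM. RPS7 was among the steadiest, at 2647, 2609, 2641 and 2497 CPM, and RPL19 was at 4963, 4966, 4995 and 4546 CPM. RPL10, whose protein joins the large subunit last and is needed for subunit joining, kept its level in RES-A (−0.02 against LNCaP) and was lower in RES-B (−0.56).

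**Figure D2:**
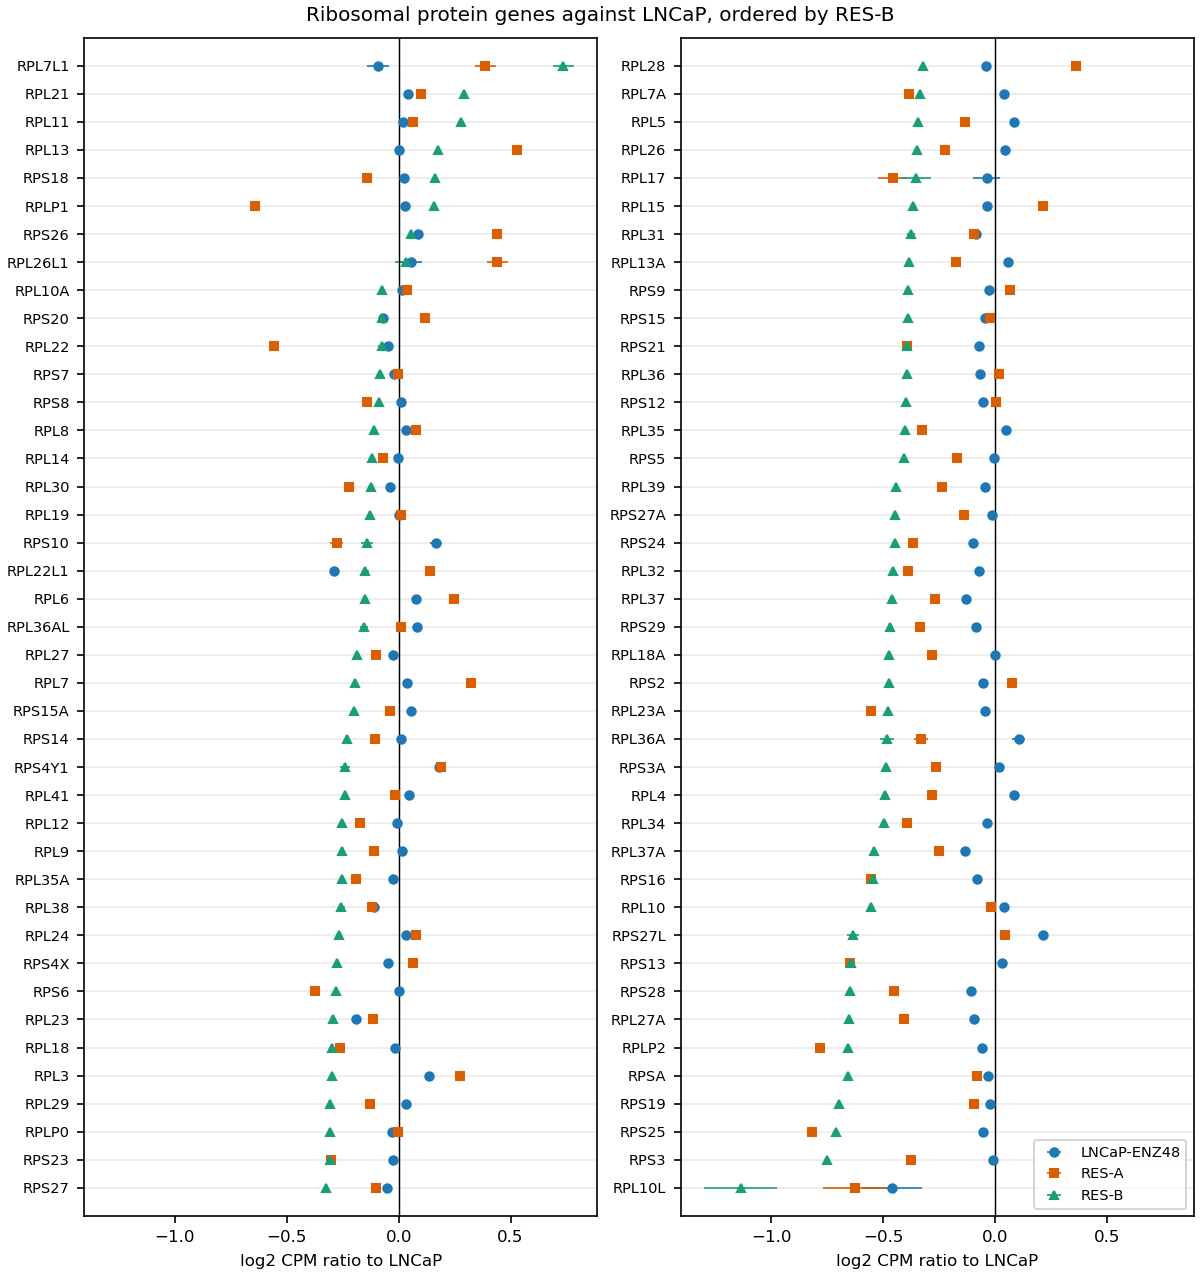
Log2 CPM ratio to LNCaP (x axis) of the members reported here with a mean of at least 10 CPM, ordered by RES-B from the top left, with 95% counting intervals. LNCaP-ENZ48 points lie close to 0, RES-B points lie mostly left of 0, and RES-A points scatter to both sides, from RPS25 to RPL13.

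After 48 h of ENZ the family stayed close to its LNCaP levels. Only 2 of the 84 members were at least 1.2-fold lower, where 18.8% of all genes were, and none was at least 1.2-fold higher, where 6.45% of all genes were. Of the 493 other genes over 200 CPM, nearer the members in level, 6.09% were lower and 8.72% higher by that margin. No member departed at least 1.5-fold from the family's median, against 3.71% of all genes around their own median. Both members past 1.2-fold were paralogues: RPL10L and RPL22L1, described below with the others.

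Among the remaining members in LNCaP-ENZ48 RPL23 and RPL37A were among the lowest. RPL23, a large subunit protein that can also bind MDM2, was at 3625 CPM in LNCaP and 3177 in LNCaP-ENZ48 (log2 ratio −0.19). RPL37A went from 4513 to 4113 CPM (−0.13). The highest, after RPS27L and RPS4Y1, were RPS10 at 419.5 and 471 CPM (0.17), RPL3 at 5072 and 5571 CPM (0.14) and RPL36A at 346 and 372 CPM (0.10). RPL3 lies at the peptidyl transferase centre. RPS10 and RPL36A overlap readthrough genes in the annotation (RPS10-NUDT3 and RPL36A-HNRNPH2), whose own counts were 6 to 9 and 0 to 1 UMIs per library, so that reads shared with them may be missing and their levels are uncertain.

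The members differed from one another far more in RES-A and RES-B than after 48 h of ENZ, with an SD over their log2 ratios to LNCaP of 0.29, 0.27 and 0.09. In RES-A, 30 of the 84 were at least 1.2-fold lower (27.1% of all genes were) and 7 at least 1.2-fold higher (29.0% of all genes were). The ratios ran from −0.82 to 0.53, with quartiles of −0.33 and 0.02. At least 1.5-fold from the family's median lay 4 of 84, among them RPL13 on the high side and RPS25 and RPLP2 on the low side, where 22.7% of all genes lay that far from theirs.

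Gene positions are those of GENCODE 44 on GRCh38. RPS25 (chr11:119015712-119018691), a small subunit protein near the mRNA exit that some viral messages need for translation, was at 3381 CPM in LNCaP, 3254 after 48 h of ENZ, 1915 in RES-A and 2062 in RES-B. Both resistant libraries were low, with log2 ratios to LNCaP of −0.82 (interval −0.83 to −0.81) and −0.71 (−0.72 to −0.70). RPS13, another small subunit gene, had the same pattern, with 3786 and 3862 CPM in the LNCaP libraries and 2413 and 2422 CPM in RES-A and RES-B (−0.65 and −0.64). RPL17 (83.8, 81.6, 61.0 and 65.5 CPM) overlaps the readthrough gene RPL17-C18orf32, whose own counts were 9, 8, 5 and 1 UMIs, and near-identical copies can also take reads of a ribosomal protein gene, so that its low level is uncertain.

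At the other end of RES-A, RPL13 (chr16:89560677-89564542), a large subunit gene, was at 7127 CPM in LNCaP, 7137 after 48 h of ENZ, 10297 in RES-A and 8055 in RES-B. RES-A stood above the other 3 libraries, with a log2 ratio to LNCaP of 0.53 (0.52 to 0.54), while RES-B was at 0.18. RPS26, whose protein contacts the mRNA near the exit channel, was at 1573, 1670.1, 2135 and 1635 CPM, again highest in RES-A (0.44), and in RES-B within 0.06 of LNCaP on the log2 scale. RPL28 was at 4640.4, 4509 and 5965 CPM in the first 3 libraries and 3708 CPM in RES-B. RES-A was thus its highest library (0.36) and RES-B its lowest (−0.32), and RPL3, at 6137 CPM in RES-A (0.27) and 4123 in RES-B (−0.30), went to the same sides. The paralogues RPL26L1 and RPL7L1 were the other 2 of the 5 highest in RES-A.

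In RES-B the family was lower as a body. Against LNCaP, 53 of the 84 members were at least 1.2-fold lower (20.5% of all genes were) and 3 at least 1.2-fold higher (35.5% of all genes were). Below 0 were 76 of the 84, compared with 59 in RES-A and 47 in LNCaP-ENZ48. The quartiles were −0.47 and −0.18, and 4 members (RPL7L1, RPL11 and RPL21 above, RPL10L below) lay at least 1.5-fold from the family's median, against 21.6% of all genes.

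RPS3, a small subunit protein at the mRNA entry that also acts in DNA repair, was at 3737 CPM in LNCaP, 3712 after 48 h of ENZ, 2877 in RES-A and 2222 in RES-B. Against LNCaP, RES-B was at −0.75 (−0.76 to −0.74) and RES-A at −0.38. RPS19, the gene most often mutated in Diamond-Blackfan anaemia, was at 3187, 3138, 2987 and 1963 CPM, so that only RES-B stood apart, at −0.70 (RES-A −0.09). RPSA, a small subunit protein also known as the precursor of a laminin receptor, followed the same course at 3860 CPM in LNCaP, 3778 after 48 h of ENZ, 3653 in RES-A and 2447 in RES-B (−0.66 in RES-B and −0.08 in RES-A).

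The exceptions in RES-B were few. RPL11, which with RPL5 holds MDM2, was at 2737, 2774, 2863 and 3317 CPM, highest in RES-B with a log2 ratio of 0.28 (0.27 to 0.29). Its partner RPL5 was not, at 2426 CPM in LNCaP, 2574 after 48 h of ENZ, 2208 in RES-A and 1912 in RES-B (−0.34). RPL21, another large subunit gene, was at 2509, 2585, 2686 and 3067 CPM (0.29 in RES-B). Both RPL11 and RPL21 exceeded 1.2-fold by little and were under it with TMM scaling. RPS18, at 9240.2, 9391, 8386 and 10340.3 CPM, was at 0.16 in RES-B and −0.14 in RES-A.

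Between the resistant lines, RES-B against RES-A had 27 members at least 1.2-fold lower (17.6% of all genes were) and 4 at least 1.2-fold higher (32.8% of all genes were). RPLP1 and RPL22, 2 of 84, lay at least 1.5-fold above the family's median, against 17.1% of all genes in either direction. The lowest were RPL28 (−0.69), RPS27L (−0.68), RPS19 (−0.61), RPL15 (−0.58) and RPSA (−0.58). RPL15, a large subunit gene, was at 6246 and 6089.8 CPM in the LNCaP libraries, 7239 in RES-A and 4842 in RES-B. Highest were RPLP1 (0.80), RPL22 (0.48), RPL7L1 (0.35), RPS18 (0.30) and RPL11 (0.21).

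The stalk of the large subunit, which draws elongation factors to the ribosome, is made of RPLP0 and dimers of RPLP1 and RPLP2. RPLP0, the anchor, was at 4317 CPM in LNCaP, 4231 after 48 h of ENZ, 4308 in RES-A and 3492 in RES-B, near the family's median in RES-B (−0.31) and 0.00 in RES-A. RPLP1 was at 8861, 9049, 5672 and 9881 CPM, lowest in RES-A (−0.64) and highest in RES-B (0.16). RPLP2 was at 4066, 3899.6, 2364 and 2580.2 CPM, low in both resistant lines (−0.78 in RES-A and −0.66 in RES-B). RPLP1 and RPLP2, whose proteins pair with each other, thus stood on the same side of LNCaP in RES-A and on opposite sides in RES-B, and both have a long C and T run at the start site in the windows above.

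**Figure D3:**
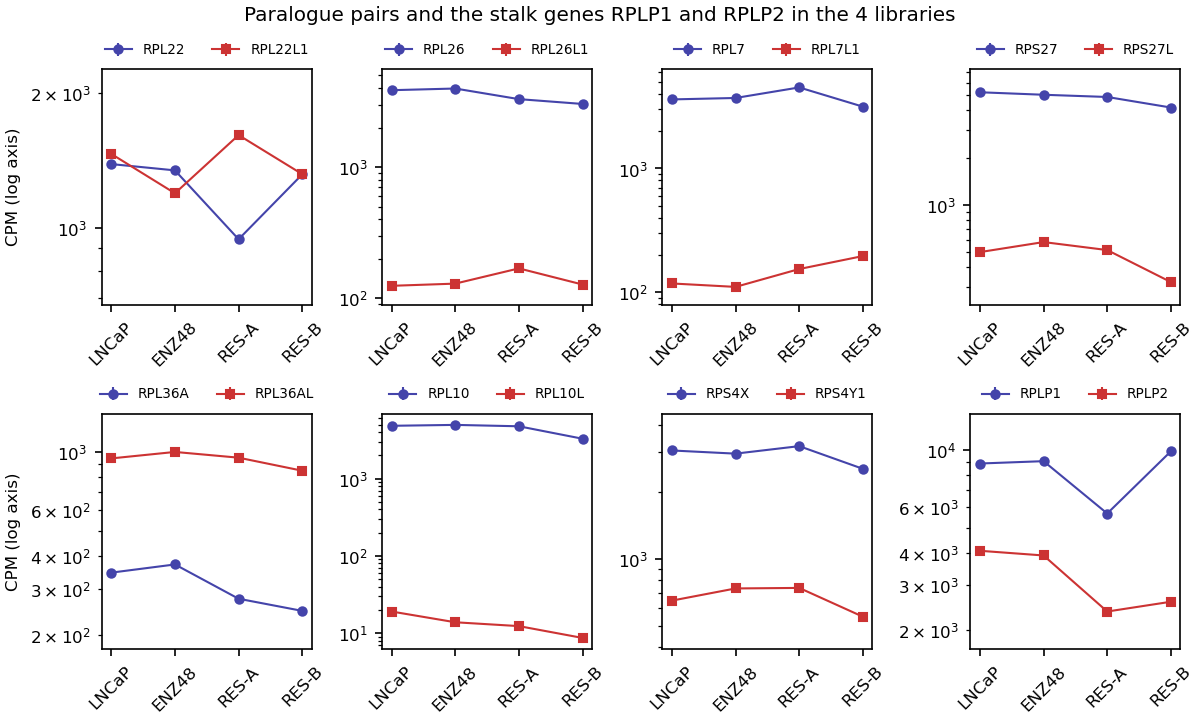
Level (CPM, log y axis, scale differing between panels) of 7 paralogues beside their partner genes and of RPLP1 and RPLP2 in the 4 libraries, with 95% counting intervals that are mostly smaller than the points. RPL22L1 lies above RPL22 in LNCaP, below it in LNCaP-ENZ48 and furthest above it in RES-A, and RPLP1 and RPLP2 part in RES-B.

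Of the 10 paralogue pairs, RPL22 and RPL22L1 differed most between libraries in percentage points of the pair's UMIs. RPL22, an RNA-binding large subunit protein that is known to hold down the RNA of its own paralogue, was at 1386 CPM in LNCaP, 1342 after 48 h of ENZ, 944 in RES-A and 1315 in RES-B. RPL22L1 was at 1460.3, 1194, 1608 and 1317 CPM. RES-A had the lowest RPL22 (−0.56) together with the highest RPL22L1 (0.14), and LNCaP-ENZ48 the lowest RPL22L1 (−0.29). RPL22L1 accounted for 51.3% of the pair's UMIs in LNCaP (51.0 to 51.6%), 47.1% after 48 h of ENZ (46.8 to 47.3%), 63.0% in RES-A (62.8 to 63.3%) and 50.03% in RES-B (49.8 to 50.3%). Within cells with 5 to 10% mitochondrial UMIs the RES-B share was 46.2%, and within cells with 16000 to 25000 UMIs the RES-A share was 65.6%.

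RPL7L1, which despite its name is best known as a nucleolar factor of large subunit assembly, was at 118 CPM in LNCaP, 110.3 after 48 h of ENZ, 154 in RES-A and 196 in RES-B. Both resistant lines were above the LNCaP libraries, by 0.39 (0.34 to 0.44) in RES-A and 0.74 (0.69 to 0.78) in RES-B, where no member had a higher ratio. Its share of the pair with RPL7 was 3.15, 2.89, 3.29 and 5.84%.

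RPS27L, the p53 target, was at 499.6 CPM in LNCaP, 579 after 48 h of ENZ, 515 in RES-A and 322 in RES-B. LNCaP-ENZ48 was the highest of the libraries (0.21, also the highest ratio of any member there) and RES-B the lowest (−0.64). Of the UMIs of RPS27 and RPS27L, RPS27L held 8.72, 10.3, 9.55 and 7.15%.

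RPL26L1 and RPL36AL, near copies of RPL26 and RPL36A, share long stretches with their partners, so their shares depend on how reads were assigned. RPL26L1 was at 125, 129, 169 and 127 CPM, high in RES-A alone (0.44, 0.40 to 0.49), which gave pair shares of 3.12, 3.15, 4.87 and 4.03%. RPL36AL was at 942, 997, 948 and 846 CPM (0.08, 0.01 and −0.16 against LNCaP), and its share of the pair was 73.2, 72.9, 77.5 and 77.4%. Its partner RPL36A was lower in both resistant lines, at 275.0 CPM in RES-A and 247 in RES-B.

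RPS4Y1, the Y-linked gene beside RPS4X, was at 648, 735, 739 and 549 CPM, or 17.5, 19.9, 18.8 and 17.8% of the pair. LNCaP-ENZ48 (0.18) and RES-A (0.19) were above LNCaP and RES-B below it (−0.24). RPL10L, an intronless copy of RPL10 known from the testis, was counted at 19.0, 13.8, 12.3 and 8.65 CPM, with a ratio to LNCaP of −0.46 (−0.60 to −0.33), −0.63 and −1.14 (−1.3 to −0.97). Its counts depend on how reads shared with RPL10 (4820.5, 4952, 4751 and 3278 CPM) were assigned, and in cells with 16000 to 25000 UMIs the ratio of LNCaP-ENZ48 was 0.04. RPL39L gave 34, 34, 20 and 24 UMIs and RPL3L, a gene of heart and skeletal muscle, 4, 7, 8 and 9 UMIs. RPS4Y2 gave 0, 4, 5 and 6 UMIs, where the limit set for a count of 0 was 3 UMIs and the exact interval of LNCaP reached 0.0735 CPM.

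Where a member lies in the genome went with its ratio in the resistant lines. For each of the 84 members, the median log2 ratio of up to 25 expressed protein-coding genes on each side was taken, without members, and both values were set against the median of all expressed protein-coding genes. Across the members, Pearson's r between the member and its surroundings was −0.11 after 48 h of ENZ, 0.52 in RES-A and 0.58 in RES-B, and Spearman's rho was −0.03, 0.45 and 0.50. For RES-B against RES-A they were 0.53 and 0.50. Without the paralogues (77 genes) r was 0.04, 0.59 and 0.58. These are descriptions across genes, which share the libraries and, for members on the same arm, some of the same nearby genes.

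**Figure D4:**
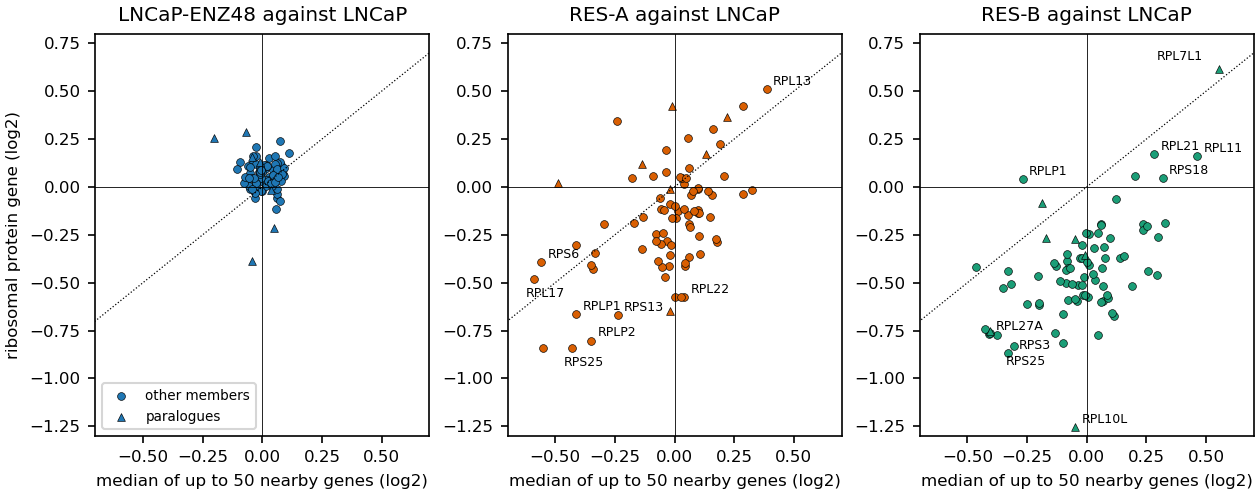
Log2 ratio to LNCaP of each ribosomal protein gene (y axis) and the median of up to 50 nearby genes (x axis), both relative to the median of all expressed protein-coding genes; the dotted line marks equal values. Points rise from left to right in RES-A and RES-B and not in LNCaP-ENZ48, and in RES-B most lie below the line.

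The surroundings of the members ranged from −0.59 to 0.39 in RES-A and from −0.46 to 0.55 in RES-B. On chromosome 11, all 5 members (RPLP2, RPS13, RPS25, RPL27A and RPS3) were below LNCaP in both lines. Their median was −0.52 from the family in RES-A and −0.33 in RES-B, and that of their surroundings was −0.34 and −0.37. Values from the family are set against the family's median, not against all expressed protein-coding genes, so they are not on the scale of the surroundings. On that scale these members ran from −0.84 (RPS25) to −0.40 (RPS3) in RES-A and from −0.87 (RPS3) to −0.76 (RPS13) in RES-B. RPS3 was lower in RES-B than in RES-A, as were its surroundings, which were at 0.05 in RES-A and −0.33 in RES-B. In RES-A the gene was itself low (−0.38 against LNCaP) and was not matched by its surroundings. Around RPL13 on chromosome 16 the nearby genes were at 0.39 in RES-A and 0.20 in RES-B, and around RPS26 and RPL41, on the long arm of chromosome 12, at 0.29 each in RES-A.

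The 4 members on chromosome 9 (RPL12, RPL35, RPL7A and RPS6) lay in surroundings at −0.34 (RES-A) and 0.05 (RES-B) in the median, and were −0.22 and 0.02 from the family. On the scale of the surroundings they ran from −0.41 (RPL7A) to −0.19 (RPL12) in RES-A and from −0.52 (RPL35) to −0.37 (RPL12) in RES-B. RPS6, the substrate of the S6 kinases, was at 5345, 5349, 4131 and 4408 CPM, and its surroundings on the short arm were at −0.56 in RES-A. In RES-B the 5 chromosome 1 members had surroundings at a median of 0.26 and lay 0.24 above the family. On the scale of the surroundings they ran from −0.46 (RPL5) to 0.16 (RPL11). The nearby genes of RPL11 were at 0.46, those of RPL21 on chromosome 13 at 0.28, those of RPS18 on chromosome 6 at 0.32 and those of RPL7L1, also on chromosome 6, at 0.55.

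The surroundings of RPLP1 on chromosome 15 were at −0.41 in RES-A, on the side of the gene itself, and at −0.27 in RES-B, where the gene was above LNCaP. RPL4 on that chromosome was low in both lines. RPL28 in RES-A (surroundings −0.24), RPL22 in RES-A (0.04) and RPL23A in RES-A (log2 ratio −0.56, surroundings 0.00) were likewise not matched by nearby genes. With its surroundings subtracted, the median member of RES-A was at −0.15 and that of RES-B at −0.40. Those surroundings had medians of only 0.003 and −0.014, so subtracting them could hardly move the members' median. Whether position accounts for the family's lower median was not tested.

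Related parts of the translation machinery are given for comparison. FAU, whose product is cleaved to give a small subunit protein, was at −0.40 in RES-B. Of 14 translation genes whose messages also carry TOP tracts, 5 (35.7%) were at least 1.2-fold lower and 2 (14.3%) higher in RES-B, around a median of −0.15, where 20.5% of all genes were lower and 35.5% higher. In RES-A 5 were lower and 1 (7.14%) higher around a median of −0.027, where 27.1% of all genes were lower and 29.0% higher, and after 48 h of ENZ 0 passed in either direction. EEF1A1, the elongation factor that brings aminoacyl-tRNA to the ribosome, was at 0.51 in RES-B and EEF1D, a subunit of its exchange factor, at −0.82 in RES-B. TPT1 was at −0.72 in RES-A and −0.16 in RES-B.

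Proteins of the mitochondrial ribosome, a separate particle, had medians of −0.04, 0.19 and 0.16 over 75 genes. In RES-A 31 of them (41.3%) were at least 1.2-fold higher and 7 (9.33%) lower, where 29.0% and 27.1% of all genes were. In RES-B 25 (33.3%) were higher, about the share of all genes, and 6 (8.0%) lower, where 20.5% of all genes were. After 48 h of ENZ 0 were higher and 5 (6.67%) lower, where 18.8% of all genes were. Of 33 ribosome biogenesis genes, which build the subunits in the nucleolus, 15 were at least 1.2-fold lower and 0 higher in LNCaP-ENZ48 (median −0.22), whereas 13 were higher and 3 lower in RES-A (0.20) and 12 higher and 3 lower in RES-B (0.13). The shares lower in LNCaP-ENZ48 (45.5%) and higher in RES-A (39.4%) lay above those of all genes, the share higher in RES-B (36.4%) was close to that of all genes, and the share lower in each resistant line (9.09%) lay below, with no test of these differences. In LNCaP-ENZ48 the lower ones included TCOF1 (−0.83) and LYAR (−0.62), and in RES-A the higher ones included NOP56 (0.97), a core protein of the small nucleolar ribonucleoproteins that methylate ribosomal RNA.

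**Figure D5:**
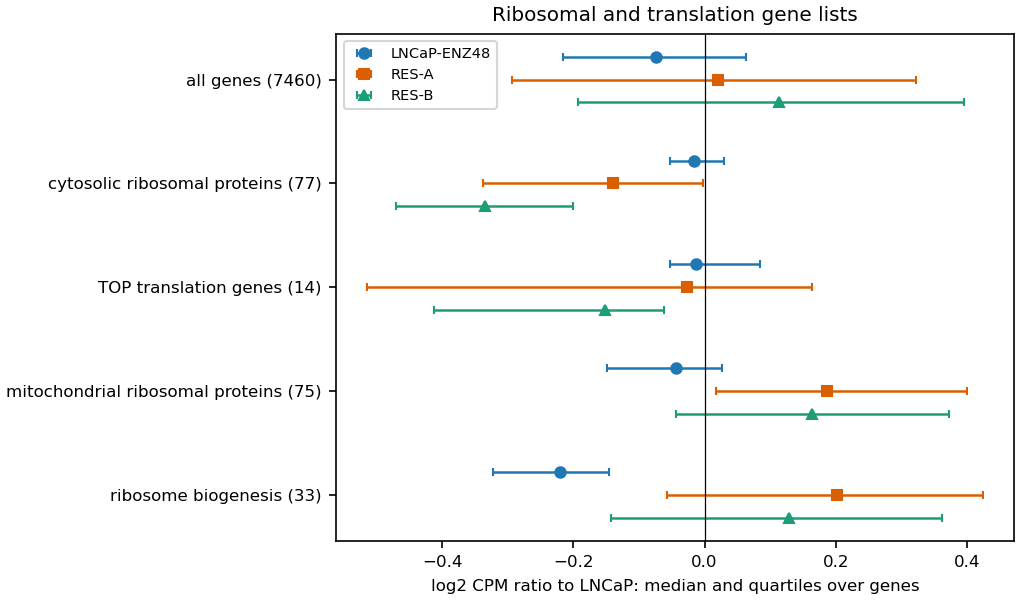
Median (point) and quartiles (bar) of the log2 CPM ratio to LNCaP (x axis) over the genes of each list, with the number of genes in brackets. In RES-A and RES-B the median of the cytosolic ribosomal protein genes without paralogues lies left of that of all genes. The medians of the mitochondrial ribosomal protein and biogenesis genes lie right of 0 there, while some of their quartile bars cross 0.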

How the data were processed

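Living cells were sorted and 3′ droplet libraries sequenced, 1 per group, for 4 groups given by the sample titles. The authors made the deposited UMI counts per gene and cell barcode with Cell Ranger 3.0.2 on GRCh38, per the submitters' processing notes, and deposited them without normalization. Cell Ranger keeps reads that map to a single gene, so near-identical copies lose reads.

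Cells were kept by the study's limits: in LNCaP 3000 to 7000 genes, 16000 to 50000 UMIs and under 15% mitochondrial UMIs, and in the others 1500 to 5000 genes and 5000 to 25000 UMIs, with under 15% (LNCaP-ENZ48), 17% (RES-A) or 20% (RES-B) mitochondrial UMIs. This kept 1782, 4315, 4569 and 4061 cells. Doublets were not removed, and an alternative left out the 5% of cells with the most UMIs. Cell cycle phases were called with scanpy 1.11.5 on cells thinned to 5000 UMIs, with the 43 S and 54 G2/M genes distributed with Seurat.

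UMIs were summed per library and scaled to CPM, so no division by length was needed, as each UMI counts a molecule. Levels have exact Poisson, shares and ratios exact binomial (Clopper-Pearson) 95% intervals, which cover counting error only. A count of 0 was set to 3 UMIs. Ratios were read for genes whose mean was 10 CPM or more, in 4 comparisons (each of the other libraries with LNCaP, and RES-B with RES-A). The scripts were tested on simulated data. Python 3.11.15, numpy 2.4.6, scipy 1.17.1 and pandas 2.3.3 were used, and for size factors edgeR 4.0.16 (TMM) and DESeq2 1.42.0. Gene IDs were matched to GENCODE 44 (33113 of 33538, and all 87 members) for position.

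Genes named with values are the paralogues, the 5 highest and 5 lowest members of each comparison, members at least 1.5-fold from the family's median, and RPLP0, RPLP1, RPLP2 and RPSA; the other genes, such as RPS2, RPL41, RPS7, RPL19, RPL10, RPL5, RPL17, RPL23A and RPS6, were named after their values were seen. The members and lists were chosen with earlier results of these data known. Some genes that these rules name, and a list that holds one of them, are not reported here, though counts over the family include its members. Protein sequences were not used here.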

Additional observations from a re-analysis of the deposited data

Results flagged for a closer look

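RPL28 and RPL3 stood at least 1.2-fold above LNCaP in RES-A and at least 1.2-fold below it in RES-B, opposite sides of the parental line. The log2 ratio of RES-B to RES-A was −0.69 for RPL28 and −0.57 for RPL3. RPL3 in RES-A was under 1.2-fold with TMM scaling. With 1 library per line, the difference was not tested. The surroundings of RPL3 on chromosome 22 were at 0.06 in RES-A and −0.46 in RES-B, and those of RPL28 on chromosome 19 at −0.24 and −0.33.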

How the results depend on the processing

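No paired analysis was possible because each group is 1 library. The main median log2 ratios of the members were −0.015, −0.13 and −0.32 for LNCaP-ENZ48, RES-A and RES-B to LNCaP, and −0.18 for RES-B to RES-A. In that order they were 0.081, −0.18, −0.43 and −0.23 with TMM, 0.087, −0.17, −0.42 and −0.24 with DESeq2 size factors, −0.022, −0.19, −0.45 and −0.24 with the members left out of the totals, and −0.019, −0.12, −0.28 and −0.15 without mitochondrial genes. By cells they were −0.0056, −0.14, −0.34 and −0.19 without a cell filter, −0.0083, −0.13, −0.32 and −0.17 with 1 filter for all libraries, −0.038, −0.18, −0.36 and −0.17 at 16000 to 25000 UMIs, 0.00032, −0.11, −0.31 and −0.15 at 5 to 10% mitochondrial UMIs, −0.025, −0.14, −0.33 and −0.18 without the 5% of cells with the most UMIs, and −0.036, −0.14 and −0.33 (to LNCaP) in G1 cells. At a minimum of 50 CPM, LNCaP-ENZ48, RES-A and RES-B against RES-A had −0.014, −0.13 and −0.18. Medians of the resistant lines kept their sign under each of these settings, and that of LNCaP-ENZ48 did not.

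The members' shares of UMIs (parental, treated, RES-A, RES-B) were 33.6, 32.9, 30.8 and 27.3% in G1 cells, 33.2, 32.1, 29.5 and 26.3% at 16000 to 25000 UMIs, 32.7, 32.8, 30.3 and 27.1% at 5 to 10% mitochondrial UMIs, 32.6, 32.4, 29.8 and 26.3% without a cell filter, 36.3, 35.9, 33.6 and 30.4% without mitochondrial genes, 32.6% (LNCaP-ENZ48) and 26.8% (RES-B) with 1 filter, and 33.0, 30.2 and 26.8% (LNCaP and the resistant lines) without the cells with the most UMIs. Members at least 1.2-fold lower in LNCaP-ENZ48 (2) were 0 at 16000 to 25000 UMIs and 1 at 5 to 10% mitochondrial UMIs, with TMM, with DESeq2 size factors and at 50 CPM. Those at least 1.2-fold higher (0) were 2 with TMM and 3 with DESeq2 size factors, and in RES-B (3) they were 1 with TMM, with DESeq2 size factors and without the members in the totals. RPL10L reversed in LNCaP-ENZ48 to 0.041 at 16000 to 25000 UMIs. The causes of these changes were not tested.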
